A study of Mus musculus with 13 samples.

Results

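RNA of 7 Rhox genes was followed in mouse embryonic stem (ES) cells. Rhox1, Rhox4b, Rhox5, Rhox6, Rhox9, Rhox10 and Rhox13 were taken by their symbols from 39 Rhox genes among the 26797 genes counted in the replicate libraries. The same Ensembl identifiers were found in a joint count table of 49671 genes. All 7 members were present in both.

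The study asked how methylated promoters are kept silent. WT cells were of the AinV15 line, and Dnmt1-/- cells were of the D1-null strain with the C allele, so that genotype and cell line change together. Untreated cells of each genotype were sequenced in 3 replicate libraries. The joint table had a column named for WT and a column named for Dnmt1, which no label ties to a sample or replicate, so that their cells and whether they are further libraries are not known. They are called the single WT and Dnmt1-/- libraries here. The joint table also held 1 library of AinV15 cells induced with doxycycline to express dCas9-OGA, an inactive Cas9 joined to the enzyme that removes O-GlcNAc from proteins, and 1 of cells expressing dCas9-OGA-D242A, the catalytically inactive control. Both kinds of cell also carried 4 sgRNAs designed against IAP retrotransposons. The cells were a recombinant population of 1 line, and all libraries came from polyadenylated RNA of cells grown with leukemia inhibitory factor on gelatin.

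The Rhox genes encode homeodomain proteins and lie side by side on the X chromosome, where they are known for expression in testis, ovary and placenta. In most somatic cells the cluster is described as silenced by DNA methylation, and DNMT1, the maintenance methyltransferase, copies that methylation at each round of replication. Rhox5, first described as Pem, is the best studied member and is transcribed from a distal and a proximal promoter.

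On GRCm38 with GENCODE vM21 the first and the last Rhox gene span chrX:37213804-38306028. In order along the chromosome, the members are Rhox1 (chrX:37213804-37222258, minus strand), Rhox4b (chrX:37432494-37437279, plus), Rhox5 (chrX:37804842-37808876, plus), Rhox6 (chrX:37826910-37829857, plus), Rhox9 (chrX:37899097-37901770, minus), Rhox10 (chrX:38066475-38071691, plus) and Rhox13 (chrX:38121219-38129967, plus). All are annotated as protein coding, and the reads counted were those on their exons.

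Promoters are shown because CpG sites are the bases that DNMT1 keeps methylated. RefSeq promoters (GRCm38.p6) were matched by symbol for 5 members, and Rhox6 and Rhox9 had no entry. Each line gives the 250 bases before the RefSeq transcript start, 5' to 3' on the strand of the gene, with every CpG in capitals. Rhox5 is at chrX:37754358-37754607 (plus strand), Rhox13 at chrX:38120590-38120839 (plus), Rhox1 at chrX:37222259-37222508 (minus), Rhox10 at chrX:38066225-38066474 (plus) and Rhox4b at chrX:37432244-37432493 (plus).
Rhox5: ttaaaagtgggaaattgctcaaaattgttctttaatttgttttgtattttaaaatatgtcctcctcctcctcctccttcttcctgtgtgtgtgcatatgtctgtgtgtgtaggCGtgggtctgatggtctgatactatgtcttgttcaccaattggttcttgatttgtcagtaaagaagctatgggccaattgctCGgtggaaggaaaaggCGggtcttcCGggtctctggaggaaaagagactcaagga
Rhox13: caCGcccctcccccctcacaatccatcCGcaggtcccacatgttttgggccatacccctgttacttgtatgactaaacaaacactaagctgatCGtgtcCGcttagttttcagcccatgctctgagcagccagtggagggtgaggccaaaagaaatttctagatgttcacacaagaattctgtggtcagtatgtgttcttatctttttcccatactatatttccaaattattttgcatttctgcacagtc
Rhox1: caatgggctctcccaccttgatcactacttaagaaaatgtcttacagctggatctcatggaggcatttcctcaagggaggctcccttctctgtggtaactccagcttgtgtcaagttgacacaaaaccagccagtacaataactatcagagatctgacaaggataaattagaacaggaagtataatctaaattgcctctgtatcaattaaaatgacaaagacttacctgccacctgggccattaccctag
Rhox10: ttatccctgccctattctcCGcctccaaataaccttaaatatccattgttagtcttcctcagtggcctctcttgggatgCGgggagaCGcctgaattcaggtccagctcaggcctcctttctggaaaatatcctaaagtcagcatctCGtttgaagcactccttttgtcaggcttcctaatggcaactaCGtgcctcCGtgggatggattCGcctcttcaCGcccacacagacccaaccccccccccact
Rhox4b: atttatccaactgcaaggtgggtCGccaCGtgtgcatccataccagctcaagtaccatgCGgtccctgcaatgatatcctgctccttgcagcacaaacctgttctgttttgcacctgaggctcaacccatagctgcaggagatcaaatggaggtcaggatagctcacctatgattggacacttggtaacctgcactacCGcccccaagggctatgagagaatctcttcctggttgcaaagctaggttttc

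The 5 promoters differed in their CpG content. That of Rhox1 held 0 CpG, those of Rhox4b, Rhox5 and Rhox13 held 4 each, and that of Rhox10 held 8. Across 32851 mouse promoters of the same length the median was 6 (quartiles 2 and 16), and 7.87% of them held no CpG. The RefSeq start of Rhox5 lay 50234 bases before the GENCODE start of the gene, and that of Rhox13 lay 379 bases before it, while the starts of Rhox1, Rhox4b and Rhox10 were the same in both. Letter patterns were searched on both strands: GGGCGG, the GC box bound by Sp1, CCGGAA, an ETS core, and CACGTG, an E-box. The ETS core was found once, in Rhox5, and 12.0% of all promoters held it. The GC box and the E-box were both found in Rhox4b, against 32.7% and 6.02% of all promoters. Of the 28 Rhox promoters in the table, 8 held the GC box, 8 the ETS core and 5 the E-box. Methylation of these bases was not measured in the files used here.

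The replicate libraries held between 26846275 and 37112247 reads on genes, and the single libraries between 18693531 and 25097983 counts. In the replicates the values are a normalised signal, which sums to nearly 1e6 in each library. Dnmt1 was at 308, 352 and 347 in the WT replicates and at 73.6, 75.4 and 77.6 in the Dnmt1-/- replicates, and at 11408 and 1176 counts in the single WT and Dnmt1-/- libraries. The ES cell genes Pou5f1, Nanog, Zfp42 and Esrrb had signals between 263 and 860 in all 6 replicate libraries. WT and Dnmt1-/- also differed in other ways: 7 of 7 fibroblast markers were lower in Dnmt1-/-, Lum having passed the filter on low values only through its WT libraries. Their summed signal was 251 to 281 in Dnmt1-/- and 1072 to 1540 in WT. In bulk RNA, fewer cells of a type and less RNA per cell cannot be told apart.

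The first question was whether the Rhox members were higher in ES cells without DNMT1. Of the 7 members, 6 had enough reads to be tested, and all 6 were higher in Dnmt1-/- than in WT. They rose by between 1.72-fold (Rhox9) and 7.88-fold (Rhox5), as ratios of the group means. The seventh, Rhox4b, was near the limit of detection in both groups.

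Among the 6 tested members, Rhox5 had the highest level and the largest rise. Its signal was 23.5, 24.3 and 23.6 in the WT replicates and 195, 191 and 176 in the Dnmt1-/- replicates. The groups lay far apart and their replicates close together, with means of 23.8 ± 0.450 and 188 ± 10.0 (SD, n = 3 each). The log2 fold change was 2.95 (SE 0.05, limma adjusted p = 3e-23). Reads were counted over the whole gene, so these values do not separate the transcripts of its promoters.

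Rhox13, which encodes a germ cell homeodomain protein, showed the second largest rise of the tested members. Its signal was 7.53, 7.64 and 7.18 in WT and 27.4, 27.2 and 23.7 in Dnmt1-/-. The ranges did not overlap, and the log2 fold change was 1.74 (SE 0.08, limma adjusted p = 1.5e-15).

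Rhox6 and Rhox9, also called Psx1 and Psx2, are a closely related pair known from placenta. Rhox6 had signals of 2.39, 2.93 and 2.66 in WT and of 9.47, 8.61 and 7.30 in Dnmt1-/-. Rhox9 had signals of 1.54, 1.71 and 1.62 in WT and of 2.68, 2.53 and 3.17 in Dnmt1-/-. Neither gene had overlapping groups, but the rise of Rhox9 was the smaller, with log2 fold changes of 1.50 (SE 0.12, limma adjusted p = 3e-11) for Rhox6 and 0.63 (SE 0.13, limma adjusted p = 0.00012) for Rhox9. Of the windows of 50 bases in their transcripts, 16.5% of those of Rhox6 and 6.28% of those of Rhox9 are also present in the other gene, so a part of their reads could be assigned to either.

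Rhox1, at the centromere-proximal end of the cluster, had signals of 2.26, 2.10 and 2.41 in WT and of 5.99, 6.25 and 5.71 in Dnmt1-/-. Rhox10, known for its role in spermatogonial stem cells, had signals of 2.03, 2.16 and 1.54 in WT and of 4.70, 3.65 and 4.09 in Dnmt1-/-. In both genes every Dnmt1-/- library lay above every WT library. The log2 fold change was 1.23 (SE 0.11, limma adjusted p = 6.4e-10) for Rhox1 and 0.95 (SE 0.13, limma adjusted p = 7.1e-07) for Rhox10.

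Rhox4b, first described as Ehox, had 0, 2 and 1 reads in the WT replicates and 2, 12 and 11 in the Dnmt1-/- replicates. The lowest Dnmt1-/- library thus held no more reads than the highest WT library, although its signal (0.0696 against 0.0519) was slightly above it. Rhox4b did not pass the filter on low values. With no filter its log2 fold change was 0.55 (SE 0.14, limma adjusted p = 0.006), a value that leans on the pseudocount. Of its windows of 50 bases, 93.7% are shared with 7 other genes, led by Rhox4d, Rhox4e and Rhox4a, so that reads of the copies cannot be told apart.

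**Figure D1:**
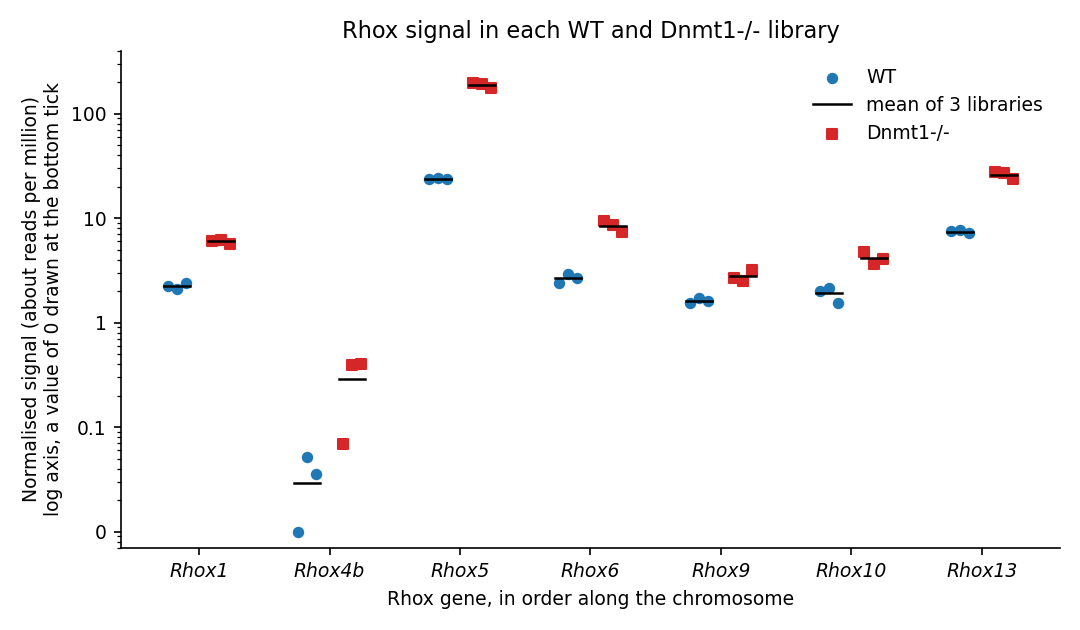
Normalised signal (log axis) of the 7 Rhox members in each of 3 WT (circles) and 3 Dnmt1-/- (squares) libraries, with bars at the group means. In the 6 tested members the Dnmt1-/- libraries sit above the WT libraries, from 23.8 to 188 in the mean for Rhox5 and from 1.62 to 2.79 for Rhox9, with Rhox4b near 0 in both groups.

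These counts were read against all genes, because Dnmt1-/- and WT cells differed in most of the transcriptome. Of 17297 genes tested, 35.8% were called higher and 35.4% lower at an adjusted p under 0.05, against 6 of 6 tested members higher and 0 lower. At an unadjusted p under 0.05 there were also 0 members lower with limma, and edgeR and DESeq2 called 6 higher and 0 lower. A rise of at least 2-fold on the log2(signal + 0.5) scale that also passed the test was seen in 3.67% of genes and in 4 of 6 members, namely Rhox5, Rhox13, Rhox6 and Rhox1. Rhox10, at 0.95 on that scale, lay just under it, while the ratio of its group means was 2.17 and its log2 fold change was 1.09 with edgeR and 1.10 with DESeq2. All 3 Dnmt1-/- libraries lay above all 3 WT libraries in 37.1% of the genes tested and in all 6 members tested. The 6 members passed the filter on their WT libraries alone, so that none entered the test only through its level in Dnmt1-/-. Their median log2 fold change was 1.37, against 0.01 over all genes tested and 0.02 over the 712 tested genes of chromosome X.

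The fold changes held across tests. Over 14 alternatives Rhox5 ranged from 2.74 to 2.99 on the log2 scale, Rhox13 from 1.32 to 1.81, Rhox6 from 0.81 to 1.65, Rhox1 from 0.60 to 1.40, Rhox10 from 0.40 to 1.10 and Rhox9 from 0.23 to 0.77. The lowest value of each came with a pseudocount of 5, which is above the WT signal of Rhox1, Rhox6, Rhox9 and Rhox10. The largest adjusted p of these tested members was 0.00247, for Rhox9, from limma with no filter on low values.

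**Figure D2:**
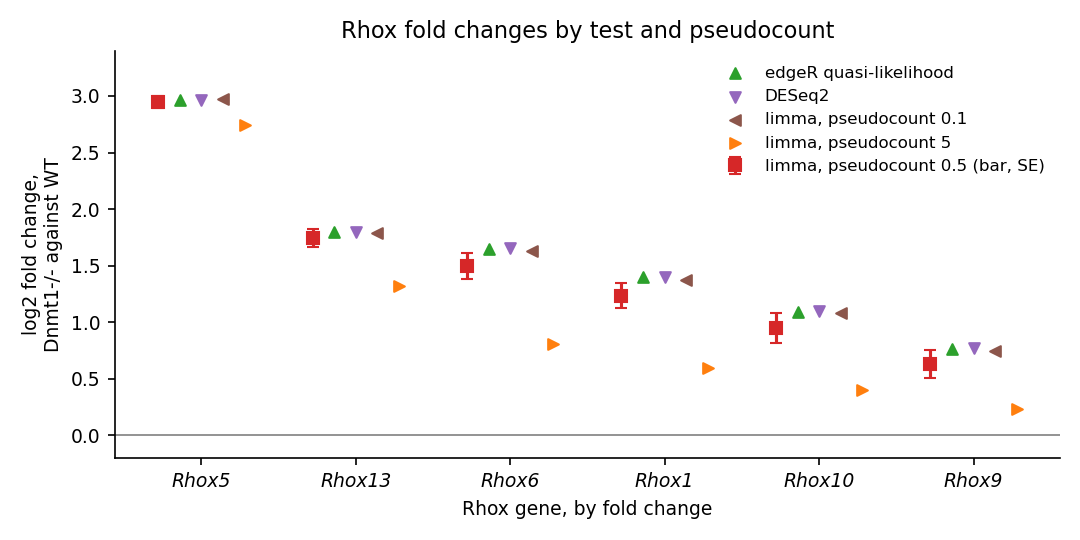
Log2 fold change of Dnmt1-/- against WT for the 6 tested members, with limma and its SE (squares), with edgeR and DESeq2, and with limma under pseudocounts of 0.1 and 5. The order from Rhox5 to Rhox9 is the same in all 5, and a pseudocount of 5 lowers Rhox9 from 0.63 to 0.23.

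Levels between genes were compared per kb of exon. In WT the order was Rhox5 (31.6 ± 0.597 per kb, SD, n = 3), Rhox13 (8.50 ± 0.270), Rhox6 (2.63 ± 0.269), Rhox1 (2.56 ± 0.172), Rhox10 (2.50 ± 0.423), Rhox9 (0.652 ± 0.0352) and Rhox4b (0.0132 ± 0.0120). The libraries of Rhox6, Rhox1 and Rhox10 overlapped, so these neighbours in the order did not differ beyond their spread. In Dnmt1-/- the order was the same, at 249 ± 13.3 for Rhox5, 29.8 ± 2.36 for Rhox13, 8.38 ± 1.08 for Rhox6, 6.77 ± 0.303 for Rhox1, 5.43 ± 0.692 for Rhox10, 1.12 ± 0.134 for Rhox9 and 0.131 ± 0.0862 for Rhox4b, and no neighbours overlapped. Rhox5 made up 54.0% to 55.2% of the summed signal of all 39 Rhox genes in the WT libraries and 72.8% to 73.4% in the Dnmt1-/- libraries. That sum was 42.7 to 45.1 in WT and 241 to 268 in Dnmt1-/-.

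Among the other 32 Rhox genes, 12 had fewer than 20 reads over the 6 libraries. Of the 8 that passed the filter on low values, Rhox2a and Rhox2e passed it on their WT libraries alone. Rhox2a had signals of 1.05, 1.25 and 1.26 in WT and of 7.24, 8.45 and 7.22 in Dnmt1-/-, a log2 fold change of 2.27 (SE 0.12, limma adjusted p = 2.3e-14). Rhox2e had signals of 0.655, 0.779 and 0.718 in WT and of 3.90, 2.70 and 3.35 in Dnmt1-/-, with a log2 fold change of 1.64 (SE 0.14, limma adjusted p = 2e-10). Both were thus clearly above their WT range. Rhox2b, Rhox2c, Rhox2d, Rhox4a2 and Rhox4g passed the filter only through their Dnmt1-/- libraries and are given with no test, with WT means between 0 and 0.204 and Dnmt1-/- means between 0.405 and 2.13. Rhox7-ps1 was tested and not called (0.389 against 0.557, limma adjusted p = 0.132).

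The Rhox2 and Rhox4 genes are tandem copies, and their reads are better read as a sum. The 8 Rhox2 copies together had signals of 2.16, 2.57 and 2.95 in WT and of 18.1, 16.4 and 16.6 in Dnmt1-/-, with means of 2.56 ± 0.392 and 17.1 ± 0.947 (SD, n = 3 each). The 8 Rhox4 copies together, Rhox4b among them, had 2, 10 and 4 reads in WT and 87, 94 and 69 reads in Dnmt1-/-. The mean signals of this sum were 0.156 ± 0.0977 and 2.89 ± 0.300 (SD, n = 3 each), and it could pass the filter on low values only through its Dnmt1-/- libraries. In neither sum did the groups overlap. The sums were formed after the values were seen, so they are given with no test.

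Of the untested genes with at least 20 reads, Rhox2f, Rhox2g, Rhox2h, Rhox4a, Rhox4c, Rhox4d, Rhox4e and Rhox4f had WT means of 0 to 0.0817 and Dnmt1-/- means of 0.192 to 0.506. Rhox2-ps and Rhox7-ps2 had means of 0.200 and 0.266 in WT and of 0.103 and 0.172 in Dnmt1-/-, and Rhox7a and Rhox7b had means of 0.111 and 0.128 in WT and of 0.215 and 0.150 in Dnmt1-/-. None of the untested genes has a test of its own.

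The genes around the cluster were examined next. Of 20 protein-coding genes within 500 kb of the first or last Rhox gene, 17 were tested, with a median log2 fold change of 0.06. Of these, 7 were called higher and 7 lower, where 35.8% of all genes tested were higher and 35.4% lower. Inside the span, Zbtb33, which encodes the methyl-CpG binding protein Kaiso, was the 1 tested gene that is not a Rhox gene, at 22.7, 19.4 and 21.3 in WT and 21.9, 22.5 and 22.4 in Dnmt1-/- (limma adjusted p = 0.327). Among the 7 higher was Gm9, singled out after its values were seen, which ends 2762 bases before Rhox1. Gm9 had signals of 0.229, 0.0779 and 0.287 in WT and of 6.37, 8.09 and 6.26 in Dnmt1-/-. It passed the filter only through its Dnmt1-/- libraries, so that these values are a description with no test. Of the 7 lower, Lamp2, a lysosomal membrane gene on the far side that was singled out in the same way, had the largest fall, with a log2 fold change of -1.29 (SE 0.06, limma adjusted p = 3.7e-15). Over the 698 tested chromosome X genes that are not Rhox genes, the flanking genes included, 249 were higher and 246 lower.

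**Figure D3:**
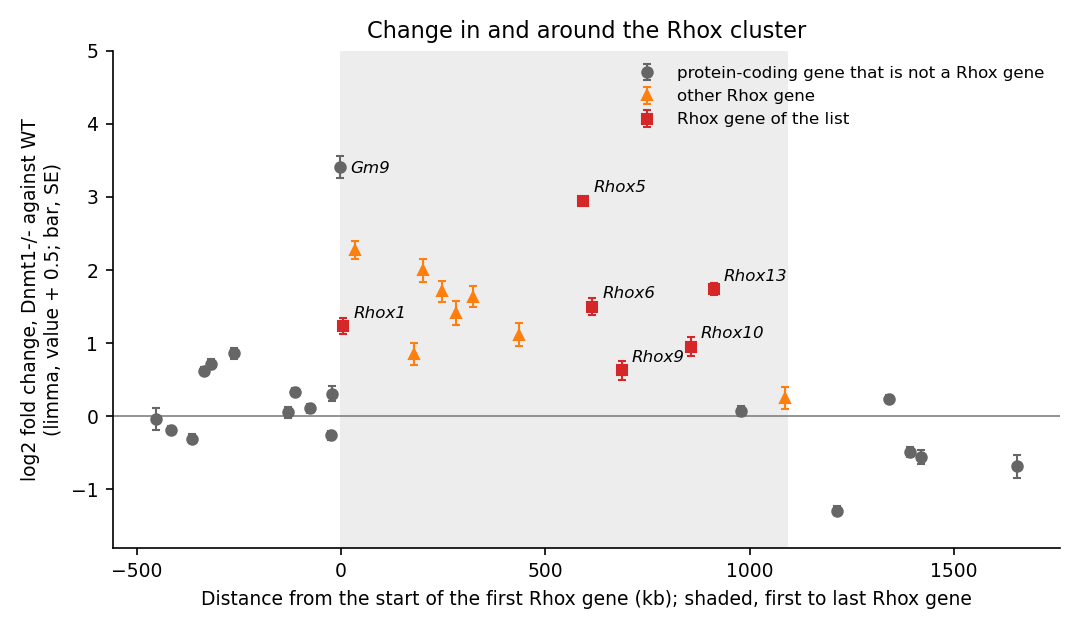
Log2 fold change with SE (limma, Dnmt1-/- against WT) of each Rhox or nearby protein-coding gene that passed the filter on low values. Genes are placed by distance in kb from the start of the first Rhox gene, with the Rhox span shaded. The 6 tested members (squares) lie between 0.63 and 2.95 and the other Rhox genes (triangles) between 0.25 and 2.27. Of the triangles, Rhox2b, Rhox2c, Rhox2d, Rhox4a2 and Rhox4g, like Gm9, passed the filter only through their Dnmt1-/- libraries and are a description with no test. The flanking genes (circles) apart from Gm9 lie between -1.29 and 0.86.

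Genes that are described as regulators of Rhox transcription were measured in the same fit. Of 23, 11 were called higher, 4 lower and 8 neither. Besides the loss of Dnmt1 (log2 fold change -2.14), Dnmt3b rose from 124, 125 and 133 to 280, 263 and 284, and Dnmt3l, the cofactor of the de novo methyltransferases, from 236, 252 and 253 to 762, 736 and 766. Setdb1, a histone H3 lysine 9 methyltransferase, and Pcgf6, a subunit of a variant Polycomb complex, were higher by 0.41 and 0.35 on the log2 scale. Tet1, Tet2 and the linker histone gene Hist1h1c were lower, with log2 fold changes of -0.32, -0.35 and -0.52. For factors that bind the Rhox5 promoters, no change was called for Gabpa (0.05), Sp1 (-0.05), Sp3 (0.05) and Elk1 (-0.03), while Gabpb1 was higher by 0.27.

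Germline genes that are known to be repressed by promoter methylation outside germ cells were also measured. The list held 12 genes, of which 10 were tested, and all 10 were called higher with a median log2 fold change of 2.18. Dazl, an RNA-binding protein of germ cells, went from 24.5, 22.0 and 23.9 to 321, 316 and 331. Sycp1, of the synaptonemal complex, went from 6.42, 5.87 and 6.11 to 40.7, 40.2 and 38.5. Dazl rose further than Rhox5 did, and Sycp1 less.

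Of 3 X-linked homeobox genes outside the cluster, 1 was higher and 2 were lower. Esx1, which is active in placenta and testis, had signals of 2.03, 2.91 and 3.16 in WT and of 8.18, 8.38 and 8.92 in Dnmt1-/- (log2 fold change 1.51, limma adjusted p = 9.7e-11). Hdx and Pou3f4 were lower, with log2 fold changes of -0.34 and -0.48, Pou3f4 having passed the filter only through its WT libraries. Of 3 tested genes described as targets of RHOX proteins, 0 were called higher and 2 lower. Unc5c (-1.51), which likewise passed through its WT libraries, and Dmrt1 (-0.47) were lower, Adipor2 (-0.04, limma adjusted p = 0.517) was not called, and Ins2 had too few reads to test.

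Markers of cell types that express Rhox genes also moved. Of the trophoblast markers, 6 of 7 tested were higher and 1 lower in Dnmt1-/-. Of the 6, Cdx2 reached the filter level in 2 WT and 3 Dnmt1-/- libraries, and so did not pass on its WT libraries alone. The summed signal of the trophoblast markers was 63.5 to 65.8 in WT and 92.7 to 101 in Dnmt1-/-. Most of it was Tfap2c (means of 42.5 and 59.0), and Elf5 was at 0 to 0.460. Of 7 primitive endoderm markers, 6 were higher, with sums of 143 to 146 and 204 to 213. All 5 germ cell markers tested, several of them also among the germline genes above, were higher, with sums of 74.6 to 80.9 and 454 to 472, most of which in Dnmt1-/- was Dazl, and Nanos2 was at 0 in 5 of the 6 libraries. Of 5 tested markers of Sertoli and other gonadal somatic cells, 1 was higher and 2 were lower, with sums of 33.5 to 40.4 in WT and 16.4 to 17.9 in Dnmt1-/-. Their part in the Rhox changes was not tested, nor was that of the lower fibroblast markers given above or of the 2-cell-like markers, of which 6 of 6 were lower (sums of 389 to 416 in WT and 154 to 177 in Dnmt1-/-).

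For each tested member the genes most like it were found by the Euclidean distance of their log2 values over the 6 libraries. Closest to Rhox5 were Slc16a3 (distance 0.51), AU015836 (0.91) and Fam25c (1.12). Slc16a3, a lactate transporter gene, went from 19.9, 19.6 and 20.8 in WT to 176, 164 and 171 in Dnmt1-/-. Closest to Rhox13 were Gprc5c (0.25), Ggt1 (0.30) and Shtn1 (0.33), and closest to Rhox6 were Rhobtb1 (0.20), Ehhadh (0.24) and Hhex (0.38). Rhox1 was closest to Grin1 (0.24), Ccdc172 (0.24) and 5330411J11Rik (0.27), Rhox10 to Slc40a1 (0.24), Dnaic2 (0.35) and Proca1 (0.36), and Rhox9 to Slc7a8 (0.25), Gm3194 (0.29) and Gm14822 (0.32). No other Rhox gene was among these, and the distances of Rhox5 to its 3 closest genes were larger than those of the other members. The measure sets genes side by side by level and change in 6 libraries and nothing more.

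The joint table holds 1 column for each condition, so its comparisons have no replicate check and no p-value. Values are counts and, as cpm, counts per 1e6 counts of the library under TMM scaling, and the intervals (exact, 95%) cover counting error only. Ratios are those of the cpm, while members and genes were counted as 2-fold apart on the log2(cpm + 0.5) scale, which understates the ratios of low genes. Genes with at least 20 counts over the 2 libraries compared were kept, which left out Rhox4b (1 count in Dnmt1-/-, 0 in the others, where a count of 0 allows up to 3 counts, or 0.121 cpm, as a one-sided limit, and the two-sided exact interval reaches 0.149 cpm).

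Between the single Dnmt1-/- and WT libraries, 3 of 6 members reached a 2-fold rise and 2 a 2-fold fall, where 10.2% of all 15598 genes were that much higher and 8.07% lower. Rhox1 had 209 counts in Dnmt1-/- and 74 in WT (11.0 and 2.99 cpm), a ratio of 3.68 (interval 2.81 to 4.87). Rhox5 had 1636 and 996 counts (86.1 and 40.2 cpm), a ratio of 2.14 (1.98 to 2.32). Rhox10 had 41 and 14 counts, a ratio of 3.82 (2.04 to 7.58). These members were higher in Dnmt1-/-, as in the replicates.

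The remaining members were not. Rhox6 had 58 counts in Dnmt1-/- and 287 in WT (3.05 and 11.6 cpm), and Rhox9 had 44 and 168 (2.31 and 6.78 cpm). Their ratios were 0.264 (0.195 to 0.350) and 0.341 (0.239 to 0.478), opposite in direction to the replicates. Rhox13 had 174 and 216 counts (9.15 and 8.71 cpm), a ratio of 1.05 (0.855 to 1.29), in place of a 3.50-fold rise. The single WT library also had 159 counts of Cdx2, 589 of Hand1 and 745 of Krt7, trophoblast genes at 4, 72 and 55 counts in the single Dnmt1-/- library, and the summed trophoblast markers were at 153 and 51.8 cpm. Primitive endoderm markers summed to 52.7 cpm in WT and 18.0 in Dnmt1-/-, 2-cell-like markers to 17.7 and 0.631, and fibroblast markers to 49.0 and 30.7. Germ cell markers summed to 137 and 195, where only Dazl rose clearly (40.9 and 115 cpm). Mael (28.8 and 20.7), Piwil2 (50.1 and 43.1) and Tex101 (5.41 and 4.58) were lower in Dnmt1-/-, and Ddx4 (11.5 and 11.7) was nearly equal. The part of these markers in the Rhox6 and Rhox9 values was not tested. The 8 Rhox2 copies held 55 counts in Dnmt1-/- and 8 in WT, and Gm9 held 149 and 28.

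The active enzyme (dCas9-OGA) was then set against the inactive one (dCas9-OGA-D242A), to ask whether Rhox RNA differed between them. The sgRNAs were designed against IAP retrotransposons and not against Rhox genes, and O-GlcNAc at Rhox genes was not examined here. With the active enzyme, 1 of 6 members reached a 2-fold rise and 4 a 2-fold fall, where 4.88% of 15510 genes were that much higher and 8.81% lower. Rhox5 was nearly equal, with 2752 counts under the active and 2517 under the inactive enzyme (111 and 101 cpm), a ratio of 1.09 (interval 1.04 to 1.16).

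The members that were lower had few counts left. Rhox1 had 4 counts under the active and 68 under the inactive enzyme, Rhox6 had 20 and 279, and Rhox9 had 10 and 225. The ratios were 0.0589 (interval 0.0156 to 0.158) for Rhox1, 0.0718 (0.0432 to 0.113) for Rhox6 and 0.0445 (0.0211 to 0.0834) for Rhox9. On the log2(cpm + 0.5) scale they were -2.29, -3.17 and -3.40, and with a pseudocount of 5 they were -0.58, -1.48 and -1.38. Rhox10 had 9 and 40 counts, a ratio of 0.225 (0.0961 to 0.472). Rhox13 went the other way, with 174 counts under the active and 66 under the inactive enzyme (7.01 and 2.66 cpm), a ratio of 2.64 (1.98 to 3.56).

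Against the single WT library, dCas9-OGA had 1 of 6 members with a 2-fold rise and 3 with a 2-fold fall, where 13.0% of 15703 genes were that much higher and 11.9% lower. The ratios to WT of both modified libraries share that WT library and are given side by side. For Rhox5 the ratios to WT were 2.76 (2.57 to 2.97) with the active and 2.52 (2.34 to 2.71) with the inactive enzyme, so that both were above WT. For Rhox1 the ratios to WT were 0.0540 (0.0143 to 0.144) with the active and 0.916 (0.650 to 1.29) with the inactive enzyme. They were 0.0696 (0.0419 to 0.110) and 0.969 (0.819 to 1.15) for Rhox6, and 0.0594 (0.0280 to 0.112) and 1.34 (1.09 to 1.64) for Rhox9. Rhox1, Rhox6 and Rhox9 were thus far below WT with the active enzyme, and with the inactive one only the interval of Rhox9, of these 3, left out a ratio of 1. For Rhox10 the ratios were 0.642 (0.245 to 1.59) and 2.85 (1.52 to 5.67). For Rhox13 they were 0.804 (0.655 to 0.987) and 0.305 (0.228 to 0.403), below WT with both.

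Other genes differed between the modified libraries beside these. Dnmt3a had 1548 counts under the active and 6266 under the inactive enzyme, and Dnmt3b had 3898 and 8895. Dnmt1 had 13614 and 9339. Summed trophoblast markers were at 71.2 and 117 cpm, most of which was Tfap2c (53.2 and 88.4 cpm). Eomes (123 and 64 counts) and Cdx2 (7 and 3 counts) went the other way. Summed primitive endoderm markers were at 38.5 and 20.4 cpm and germ cell markers at 117 and 63.7 cpm. Fibroblast markers were at 40.8 and 61.3 cpm, and 2-cell-like markers at 0.282 and 1.05 cpm. The germline genes of the list above summed to 89.4 and 55.8 cpm. The 8 Rhox2 copies held 1 and 18 counts, and Gm9 held 2 and 13. Their part in the Rhox values was not tested.

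**Figure D4:**
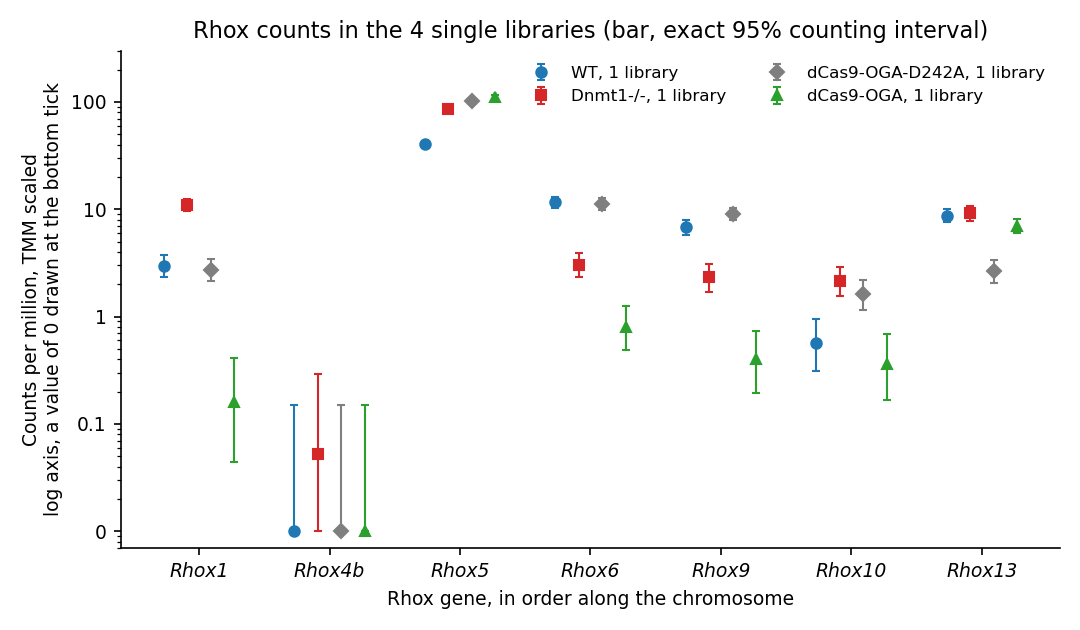
TMM-scaled cpm (log axis) of the 7 members in the 4 single libraries, with exact 95% counting intervals. In dCas9-OGA (triangles) Rhox1, Rhox6 and Rhox9 are at 0.161, 0.806 and 0.403 cpm, below the other 3 libraries, while Rhox5 is at 111 cpm, close to the 101 cpm of dCas9-OGA-D242A (diamonds).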

How the data were processed

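Labels gave the groups: WT and Dnmt1-/- (3 libraries each), and 1 library each of dCas9-OGA and dCas9-OGA-D242A. ChIP libraries were not analysed here. Reads were mapped to mm10 by the authors (per the labels, HISAT2 2.1.0 for the replicates and TopHat2 2.0.11 for both dCas9-OGA libraries) and counted on Ensembl genes with featureCounts 1.5.0. They deposited counts in a joint table of 4 columns (the single libraries, of which WT and Dnmt1 are tied to no sample) and a normalised signal (counts over a scaled library size) for the replicates, whose file headers did not match their columns, so that columns were taken by position. Labels and methods name different kits, so use of strand is not known. Signals came out as whole reads for 100% of values (tolerance 0.01).

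log2(signal + 0.5) was tested with limma 3.58.1 (trend, two-sided, Benjamini-Hochberg over 17297 genes, after edgeR's filterByExpr on the recovered reads). Alternatives were edgeR 4.0.16 and DESeq2 1.42.0 on those reads, TMM scaling, other pseudocounts and filters, a replicate block, and leaving out each library. Single libraries were TMM scaled and not tested. No label says that replicates were separate cultures, so p-values measure the spread between libraries, which exceeded sampling noise. Tests were checked on simulated data (R 4.3.3, Python 3.11.15).

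Named genes were the 7 members, other Rhox genes with at least 20 reads, protein-coding genes within 500 kb, lists of regulators, targets, homeobox, germline and marker genes, and the 3 genes nearest to each member. Some listed genes are not reported here. Members and lists were chosen with earlier results of these data known, and sums of copies after seeing the data.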

Additional observations from a re-analysis of the deposited data

Results flagged for a closer look

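Rhox6 and Rhox9 went in opposite directions under the same contrast in the replicate and in the single libraries. In the replicates each Dnmt1-/- library lay above each WT library. In the single libraries the ratio of Dnmt1-/- to WT on the log2(cpm + 0.5) scale was -1.77 for Rhox6 and -1.37 for Rhox9. This difference was not tested, since the joint table has 1 column for each genotype, tied by no label to a sample, and was normalised apart from the replicates.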

How the results depend on the processing

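All 6 tested members stayed higher in Dnmt1-/- than WT, and 0 were lower, under every alternative of test, scaling, pseudocount, filter and left-out library. With no filter Rhox4b was also called higher, but at its few reads that value leans on the pseudocount. Leaving out 1 library at a time gave 5851 to 6112 genes higher and 5765 to 6016 lower, against 6196 and 6128. The replicate numbers did not pair the libraries, since the deviations of same-numbered libraries correlated at 0.07, -0.02 and 0.07. Libraries 1 and 3 correlated best with their own number and library 2 did not. With a replicate block, 6344 genes were higher and 6212 lower, 6 members higher and 0 lower. Relative to the median of chromosome X, chosen after seeing the data, the members kept their direction, from 0.61 for Rhox9 to 2.94 for Rhox5.

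The single-library counts depended on the pseudocount. With 5 cpm, 0 members reached a 2-fold rise and 2 a 2-fold fall with the active against the inactive enzyme, and 1 reached a 2-fold fall in the single Dnmt1-/- against the single WT library. With at least 100 counts summed, 2 members reached a 2-fold fall with the active against the inactive enzyme, because Rhox1 and Rhox10 were no longer kept. No direction of a member that was at least 2-fold apart was reversed. Depth limits Rhox4b (at most 12 reads in a library) and, in dCas9-OGA, Rhox1 (4 counts).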
